A study of Mus musculus with 12 samples.

Results

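The enzymes that make serine, pass its carbon to folate and spend it in the methionine cycle were followed in bulk liver RNA of CCR1 knockout (CCR1-KO) mice and wild-type (WT) mice. They are 10 genes, matched by symbol in the deposited gene table: Phgdh, Psat1, Psph, Shmt1, Shmt2, Mthfd1, Mthfd2, Aldh1l2, Gnmt and Mat1a. Each had 1 row of the 27912 in the table, and all 10 were among the 17729 genes kept by the filter on low counts. CCR1 is a chemokine receptor of leukocytes. The CCR1-KO group holds libraries 65, 66 and 67, labelled as knockout, and the WT group holds libraries 62, 63 and 64. Both groups come from male mice (the WT are C57BL/6), 8 weeks old at the start, that ate the same CL diet, rich in fat and cholesterol with cholate, for 12 weeks. The part of Ccr1 that was removed, and whether the WT mice were littermates, are not stated in the labels, so genotype and litter or substrain cannot be told apart. The other 6 libraries of the series, a second WT group and the group labelled LKO, were not analysed here, and neither was normal chow.

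Serine is made from the glycolytic intermediate 3-phosphoglycerate in a chain of 3 enzymes, and serine hydroxymethyltransferases then move its side-chain carbon onto tetrahydrofolate. The folate-bound carbon is oxidised or reduced by paired enzymes of the cytosol and the mitochondria and serves purine, thymidylate and methionine synthesis. In hepatocytes the methionine cycle is unusually active: methionine is turned into S-adenosylmethionine, the methyl donor of the cell, and glycine N-methyltransferase disposes of its excess. The adult liver is known for high levels of this last branch and for low levels of the serine synthesis enzymes when dietary protein is ample.

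The libraries held 74699391 to 76785243 reads assigned to genes in CCR1-KO and 75301760 to 79154085 in WT. Levels between libraries are given in CPM (reads scaled to a common library size with TMM factors), and levels between genes in the deposited FPKM, which also divides by gene length. Fold changes are log2 of CCR1-KO over WT ± standard error, and a gene passed at an adjusted p under 0.05 in edgeR's quasi-likelihood test over all tested genes. For Ccr1 itself, 11, 4 and 14 reads were counted in CCR1-KO libraries 65, 66 and 67, against 100, 23 and 123 in WT libraries 62, 63 and 64. The groups did not overlap, although the fold change did not pass (-2.72 ± 0.76, adjusted p = 0.075). It passed in DESeq2 (adjusted p = 0.0050) and in edgeR without scaling factors (-3.05, adjusted p = 0.0498). Major urinary protein genes took 3.36% to 15.8% of the reads in CCR1-KO, against 0.927% to 1.05% in WT. Without scaling factors the median of all genes shifted by -0.30 on the log2 scale, and in the fit on FPKM by -0.23. CCR1-KO replicate 65 had the lowest share of major urinary protein reads in its group, so values without it are given where they differ. Hepatocyte marker genes summed to 78111 to 97894 CPM in CCR1-KO and 75888 to 92123 CPM in WT, which overlap. Of these 12 markers 5 were higher and 0 lower, while 2.83% of all tested genes were higher. The median log2 fold change of the 12 was 0.80, with 9 positive and 3 negative.

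Upstream sequence from RefSeq (GRCm38.p6) was found for 8 of the 10 genes. The 250 bases before the start are shown for Gnmt, the most abundant of these 8, and for Phgdh, the least abundant, because they mark the ends of the range of levels described next. The Gnmt window is chr17:46729166-46729415 and the Phgdh window chr3:98339970-98340219, both on the minus strand and written 5′ to 3′. Capitals mark a match to a searched motif.
Gnmt: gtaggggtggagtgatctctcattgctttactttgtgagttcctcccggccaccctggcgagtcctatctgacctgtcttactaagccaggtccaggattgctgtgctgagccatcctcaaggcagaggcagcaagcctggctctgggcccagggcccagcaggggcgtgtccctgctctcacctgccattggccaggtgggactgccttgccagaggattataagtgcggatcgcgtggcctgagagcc
Phgdh: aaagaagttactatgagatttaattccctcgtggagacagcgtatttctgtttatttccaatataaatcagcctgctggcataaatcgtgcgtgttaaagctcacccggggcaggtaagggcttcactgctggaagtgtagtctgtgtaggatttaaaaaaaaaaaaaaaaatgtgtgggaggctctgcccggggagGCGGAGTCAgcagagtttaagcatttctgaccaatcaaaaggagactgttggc
The motifs searched on both strands were TGATGNAA (the composite element of ATF4 and C/EBP factors), CACGTG (the E-box) and TGACNNNGC (the core of the antioxidant response element). The single match in the 9 windows of the 8 genes was the antioxidant core in Phgdh, 53 to 45 bases before the start on the opposite strand. Of 32851 promoter windows of the same length, 3.45% held TGATGNAA, 6.02% held CACGTG and 10.2% held TGACNNNGC. CG dinucleotides numbered 6 in the Gnmt window and 7 in the Phgdh window, with a median of 6 over all windows, and from 7 to 24 in the other 7 windows of these genes.

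Per gene length, the 10 genes ranged from transcripts among the most abundant of the liver to nearly undetected ones, and the order of the means was the same in both groups. Mat1a, which makes S-adenosylmethionine in hepatocytes, stood at 1084 ± 65.4 FPKM in CCR1-KO and 1047 ± 23.6 FPKM in WT (SD, n = 3 each). Its mean was the 71st highest of 27912 genes in CCR1-KO and the 59th highest in WT. Gnmt followed at 631 ± 69.0 FPKM in CCR1-KO and 528 ± 64.2 FPKM in WT. Shmt2, Shmt1 and Mthfd1 formed a middle tier. Shmt2 had 51.4 ± 5.33 FPKM in CCR1-KO and 58.1 ± 6.29 FPKM in WT. Shmt1 had 40.1 ± 12.6 FPKM in CCR1-KO and 48.2 ± 2.05 FPKM in WT. Mthfd1 had 29.9 ± 1.88 FPKM in CCR1-KO and 35.3 ± 1.66 FPKM in WT. The serine synthesis genes and the mitochondrial folate genes Mthfd2 and Aldh1l2 formed a low tier, at or below 1.06 FPKM in every library. Neighbours in this order whose ranges overlapped were Shmt2 and Shmt1 and then Psat1 and Phgdh in CCR1-KO, and Mthfd2 and Psat1 and then Phgdh and Aldh1l2 in WT.

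**Figure D1:**
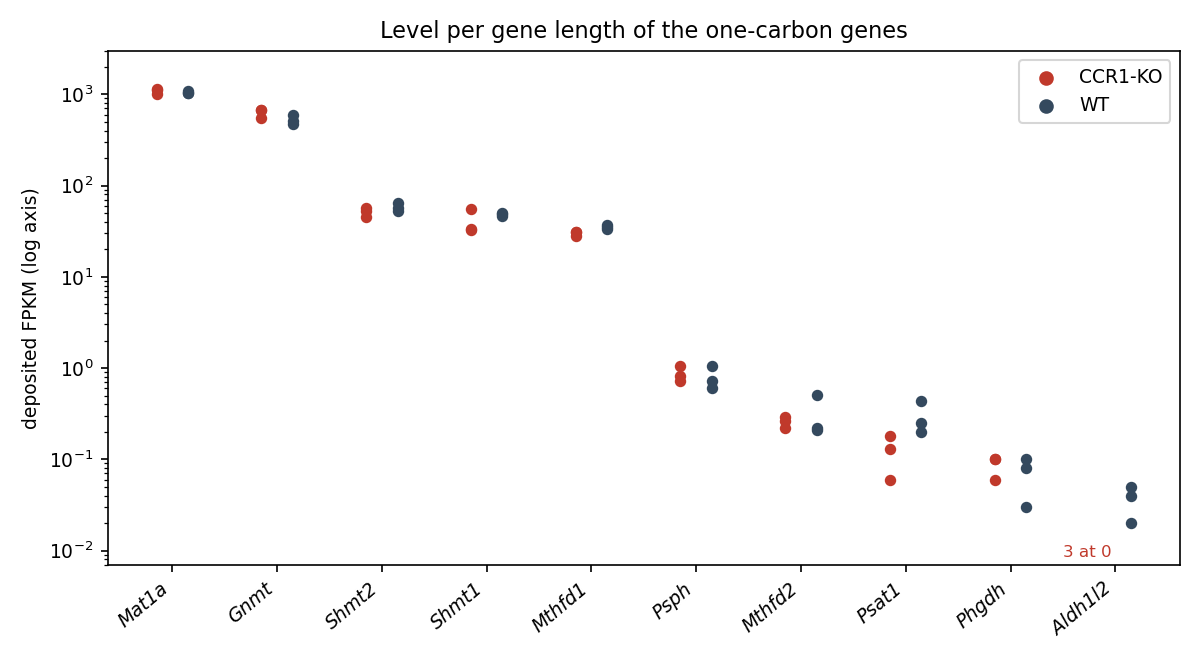
Deposited FPKM of the 10 genes on a log axis, 1 point per library, CCR1-KO (red) left of WT (dark blue), ordered by the WT mean. Mat1a and Gnmt lie at 471 to 1138 FPKM and the 5 genes from Psph to Aldh1l2 lie at or below 1.06 FPKM; Aldh1l2 is listed at 0 in the 3 CCR1-KO libraries.

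Between the genotypes, 1 of the 10 genes passed, Aldh1l2, which was lower in CCR1-KO. Of all tested genes 6.44% passed, so the members' count is near the background. The median log2 fold change of the 10 was 0.10, against 0.0017 for all tested genes. In CPM, groups did not overlap for 4 of the 10 (Gnmt and Mat1a higher, Aldh1l2 and Psat1 lower in CCR1-KO), while 32.6% of all tested genes had such groups, 15.2% higher and 17.4% lower. This separation depended on scaling: on the deposited FPKM 3 of the 10 did not overlap, all lower in CCR1-KO (Aldh1l2, Psat1 and Mthfd1), against 32.7% of all tested genes, 28.2% lower.

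**Figure D2:**
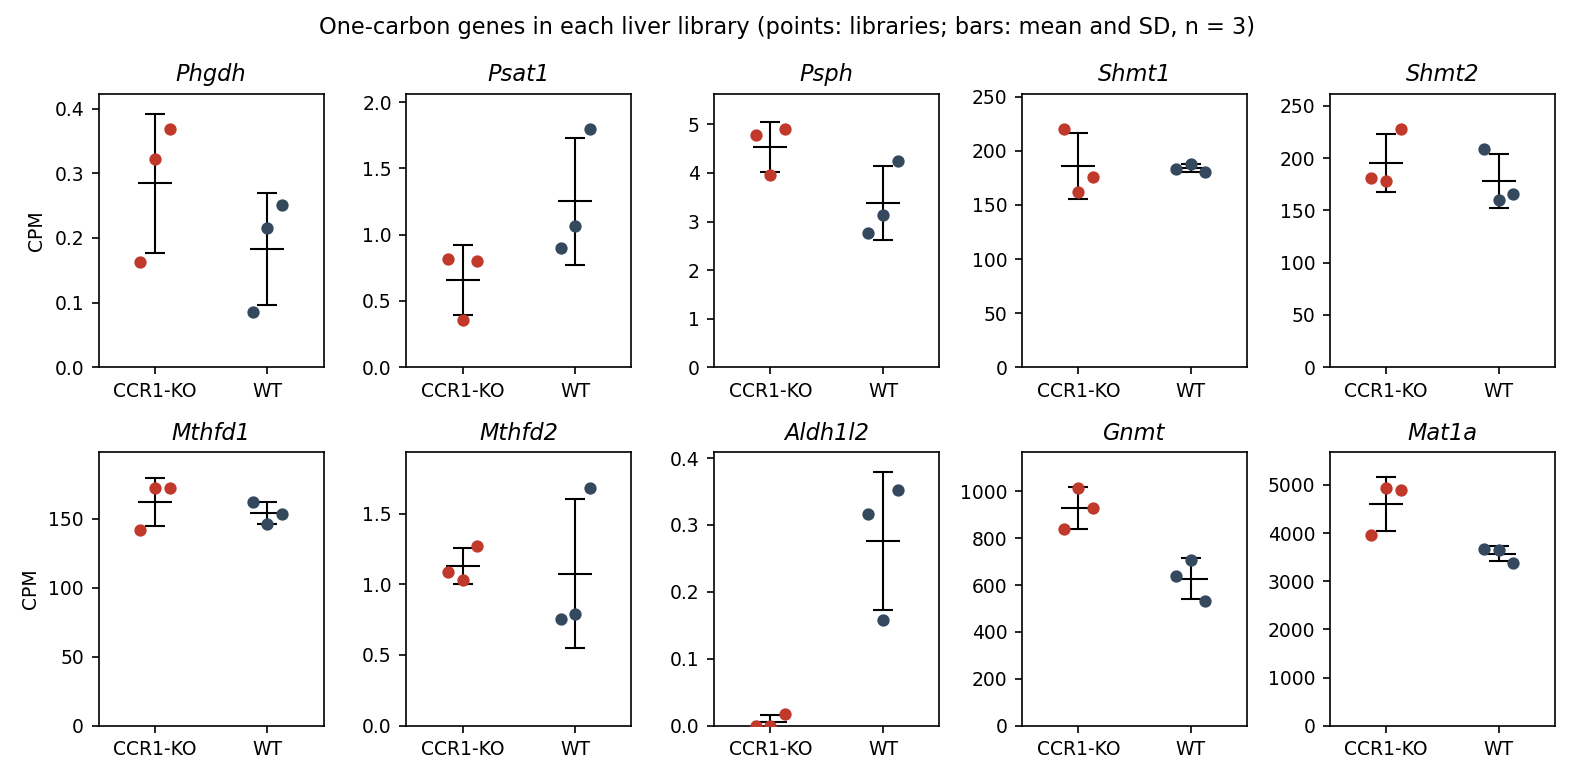
CPM of each gene by library, CCR1-KO left of WT, each panel with its own axis from 0; the long bar is the mean and the error bar the SD (n = 3). Aldh1l2 is at or near 0 in CCR1-KO, Gnmt and Mat1a lie higher in CCR1-KO without overlap on this scale, and Shmt1, Shmt2, Mthfd1 and Mthfd2 overlap.

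The serine synthesis genes had low levels in both groups. Phgdh, the dehydrogenase that opens the pathway (ENSMUSG00000053398, chr3:98313170-98339990, GRCm38), was hit by 13, 21 and 22 reads in CCR1-KO libraries 65, 66 and 67, against 7, 19 and 22 in WT libraries 62, 63 and 64. That is 0.163, 0.322 and 0.368 CPM in CCR1-KO, against 0.0850, 0.215 and 0.250 CPM in WT. The groups overlapped, and WT replicate 62 was the lowest library, at 7 reads with an exact 95% Poisson interval of 2.81 to 14.4. The fold change was 0.62 ± 0.66 (adjusted p = 0.61), with a 95% interval from -0.90 to 2.14, so a change of either sign could be missed at this depth. Intervals of read numbers cover counting error only.

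Psat1, the transaminase of the second step (ENSMUSG00000024640, chr19:15904678-15947337), had 0.813, 0.353 and 0.803 CPM in CCR1-KO replicates 65, 66 and 67, and 0.899, 1.06 and 1.80 CPM in WT replicates 62, 63 and 64. Each CCR1-KO library lay below each WT library, but the gap between CCR1-KO replicate 65 and WT replicate 62 was small beside the spread. The fold change was -0.93 ± 0.45 and did not pass (adjusted p = 0.25). Psph, the phosphatase that releases serine (ENSMUSG00000029446, chr5:129765558-129787449), was the most abundant of the 3. It had 4.78, 3.95 and 4.90 CPM in CCR1-KO, against 2.77, 3.13 and 4.24 CPM in WT. WT replicate 64 lay within the CCR1-KO range, and the fold change of 0.43 ± 0.23 did not pass (adjusted p = 0.30). The Psph model begins inside the opposite-strand gene Cct6a, which had 22465 reads in CCR1-KO and 21470 in WT. The labels do not say whether strand was used in counting, and without it the reads of the overlap cannot be told apart.

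The serine hydroxymethyltransferases, which split serine into glycine and a folate-bound carbon, lay close together per gene length, as given above, and overlapped between the groups. Shmt1, the cytosolic enzyme (ENSMUSG00000020534, chr11:60788104-60811265), had 220, 162 and 176 CPM in CCR1-KO replicates 65, 66 and 67, and 184, 188 and 180 CPM in WT replicates 62, 63 and 64. The WT libraries fell between the highest and the lowest CCR1-KO library. The SD was 30.4 CPM in CCR1-KO against 3.94 CPM in WT. Shmt2, the mitochondrial enzyme (ENSMUSG00000025403, chr10:127517123-127522444), had 181, 178 and 228 CPM in CCR1-KO, against 208, 160 and 166 CPM in WT. Its groups overlapped too. The fold changes were 0.015 ± 0.14 for Shmt1 (adjusted p = 0.96, 95% interval -0.31 to 0.34) and 0.14 ± 0.16 for Shmt2 (adjusted p = 0.65, 95% interval -0.23 to 0.50). Without scaling factors both became negative (-0.26 and -0.17), which is 0.03 and 0.12 above the shifted median of all genes. The Shmt1 model overlaps the opposite-strand gene Smcr8 at its end, with 7125 reads in CCR1-KO and 7652 in WT.

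Mthfd1 encodes the cytosolic enzyme with 3 activities that interconverts the folate-bound carbon (ENSMUSG00000021048, chr12:76255298-76319803). It had 142, 173 and 172 CPM in CCR1-KO replicates 65, 66 and 67, and 163, 146 and 154 CPM in WT replicates 62, 63 and 64. The groups overlapped, with a fold change of 0.073 ± 0.13 (adjusted p = 0.77) that became -0.24 without scaling factors. On the deposited FPKM its groups did not overlap, with 27.7 to 31.0 in CCR1-KO and 33.5 to 36.8 in WT. Mthfd2, a mitochondrial dehydrogenase and cyclohydrolase best known from embryos and tumours (ENSMUSG00000005667, chr6:83305691-83317606), had 1.09, 1.03 and 1.27 CPM in CCR1-KO. The WT libraries gave 0.753, 0.791 and 1.68 CPM, so that they enclosed the CCR1-KO values, with WT replicate 64 far above the other WT libraries. The fold change was 0.069 ± 0.39 (adjusted p = 0.94), and it too turned negative without scaling factors (-0.26).

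Aldh1l2, the mitochondrial dehydrogenase that oxidises 10-formyltetrahydrofolate to carbon dioxide and yields NADPH, was the gene with a large difference (ENSMUSG00000020256, chr10:83487450-83534140). Its reads numbered 0, 0 and 1 in CCR1-KO libraries 65, 66 and 67, against 26, 14 and 31 in WT libraries 62, 63 and 64. In CPM these were 0, 0 and 0.0167 in CCR1-KO, against 0.316, 0.158 and 0.352 in WT. The groups were far apart, although the WT level is itself very low, at 0.0367 ± 0.0153 FPKM (n = 3), and Aldh1l2 is listed at 0 FPKM in each CCR1-KO library. A floor of 3 reads for a count of 0 corresponds to 0.0375 CPM in replicate 65 and 0.0460 CPM in replicate 66, and the exact two-sided 95% Poisson interval of 0 reads reaches 3.69 reads. Summed over each group and scaled, the CCR1-KO level was 1.78% of the WT level, with an exact 95% interval of 0.0444% to 10.2% for counting error. The fitted fold change was -5.39 ± 1.11 (adjusted p = 0.033), and its size depends on the prior count because CCR1-KO had 1 read in all. Aldh1l2 entered the test through its WT libraries alone, a filter that favours a difference. The call was kept without CCR1-KO replicate 65 (adjusted p = 0.049) and lost without any other single library (0.073 to 0.13). In the latter fits 102 to 395 of all tested genes passed, against 1141 with all 6 libraries. The Aldh1l2 call was also lost with no filter on low counts (0.060). In limma on unfiltered FPKM it did not pass (-0.10, adjusted p = 0.26). The 0.5 added there is far above its FPKM, so that fit could hardly call it.

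The Aldh1l2 model overlaps the opposite-strand gene D10Wsu102e at its end, which had 3178 reads in CCR1-KO and 4391 in WT. Unless strand was used in counting, which the labels do not say, reads in the overlap cannot be told apart. Stellate cell and bile duct markers, like Aldh1l2, had lower summed levels in CCR1-KO, without overlap of the groups. Of all tested genes 3.61% were lower and 2.83% higher. Of 10 stellate markers 6 were lower, 0 were higher and 4 did not pass. Their summed level was 167 to 187 CPM in CCR1-KO and 369 to 910 CPM in WT. Macrophage markers summed to 177 to 397 CPM in CCR1-KO and 316 to 370 CPM in WT (1 of 12 lower, 0 higher), and proliferation markers to 52.4 to 93.4 CPM in CCR1-KO and 46.1 to 52.0 CPM in WT (2 of 9 lower, 1 higher). Bile duct markers summed to 53.3 to 67.7 CPM in CCR1-KO and 141 to 214 CPM in WT (2 of 8 lower, 0 higher). Endothelial markers gave 153 to 210 CPM in CCR1-KO and 156 to 217 CPM in WT (0 of 8 past the threshold), and lymphocyte markers 9.21 to 19.0 CPM in CCR1-KO and 14.7 to 19.5 CPM in WT (1 of 9 higher, 0 lower). A sum weighs abundant genes most. The median log2 fold changes were -1.42 (stellate), -0.61 (macrophage), -1.27 (proliferation), -0.66 (bile duct), -0.24 (endothelial) and -0.51 (lymphocyte). Negative fold changes numbered 6 of 9 for proliferation (3 positive), 10 of 12 for macrophage (2 positive) and 8 of 9 for lymphocyte markers (1 positive). They numbered 10 of 10 for stellate, 8 of 8 for bile duct and 6 of 8 for endothelial markers (2 positive). No marker of these lists was at 0 reads throughout a group. Their part in the Aldh1l2 result was not tested, and in bulk tissue fewer cells of a type and less RNA per cell cannot be told apart. Among 10827 genes at 1 FPKM or more in a group, the 5 whose centred log2(CPM + 0.5) profile over the 6 libraries lay nearest to Aldh1l2 were Gnptab, Phldb1, Glg1, Mxra8 and Dcn. Their root mean square differences from it were 0.065 to 0.074, and of the 5, Dcn, the matrix proteoglycan decorin, is among the stellate markers. Their fold changes were only -0.65 to -0.50, against -5.39 for Aldh1l2, and Phldb1 and Mxra8 did not pass (adjusted p = 0.080 and 0.064). Because Aldh1l2 lies below the added 0.5, its profile is flattened by this measure, and genes of small fold change lie near it.

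The methionine cycle genes were the most abundant, and both lay higher in CCR1-KO without passing. Gnmt, which uses S-adenosylmethionine to methylate glycine and binds folate (ENSMUSG00000002769, chr17:46725664-46729168), had 838, 1016 and 931 CPM in CCR1-KO replicates 65, 66 and 67, and 641, 708 and 534 CPM in WT replicates 62, 63 and 64. In CPM each CCR1-KO library lay above each WT library, but on the deposited FPKM CCR1-KO replicate 67 (552) lay below WT replicate 63 (597). The mean was 928 ± 89.0 CPM in CCR1-KO and 627 ± 87.8 CPM in WT, a fold change of 0.57 ± 0.16 that did not pass (adjusted p = 0.073, 95% interval 0.20 to 0.93). It passed in DESeq2 (adjusted p = 0.0093) and without CCR1-KO replicate 65 (adjusted p = 0.045), and was 0.26 without scaling factors, 0.56 above the shifted median of all genes.

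Mat1a (ENSMUSG00000037798, chr14:41105035-41124412) had 3963, 4944 and 4904 CPM in CCR1-KO replicates 65, 66 and 67, and 3678, 3656 and 3387 CPM in WT replicates 62, 63 and 64. In CPM the groups did not overlap, with replicate 65 the lowest of CCR1-KO. On the deposited FPKM they overlapped, at 1102, 1138 and 1011 in CCR1-KO and 1028, 1073 and 1040 in WT, with CCR1-KO replicate 67 the lowest library. The fold change was 0.37 ± 0.15 (adjusted p = 0.20, 95% interval 0.0078 to 0.72). It shrank to 0.050 without scaling factors and 0.048 in the fit on FPKM, which are 0.35 and 0.28 above the shifted medians.

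Ratios of paired genes within a library do not depend on scaling between libraries. The log2 ratio of Shmt2 to Shmt1 reads was 0.076 ± 0.33 in CCR1-KO and -0.057 ± 0.21 in WT (SD, n = 3; exact two-sided permutation p = 0.70). Per length, Shmt2 stood at 1.03 to 1.61 times Shmt1 in CCR1-KO and 1.06 to 1.42 times in WT. The ratio of Gnmt to Mat1a was -2.31 ± 0.081 in CCR1-KO and -2.52 ± 0.15 in WT (exact p = 0.20), with CCR1-KO replicate 67 below the highest WT library. Psat1 to Phgdh gave the largest difference, 1.19 ± 1.10 in CCR1-KO against 2.85 ± 0.55 in WT, but the groups overlapped by a small margin (exact p = 0.20). Psph to Phgdh was 4.08 ± 0.70 in CCR1-KO and 4.32 ± 0.62 in WT (exact p = 0.50), and Mthfd2 to Mthfd1 was -7.17 ± 0.20 in CCR1-KO and -7.27 ± 0.66 in WT (exact p = 0.90). Adjusted over the 5 ratios, the smallest p was 0.50, and 3 against 3 libraries cannot give an exact p below 0.10.

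**Figure D3:**
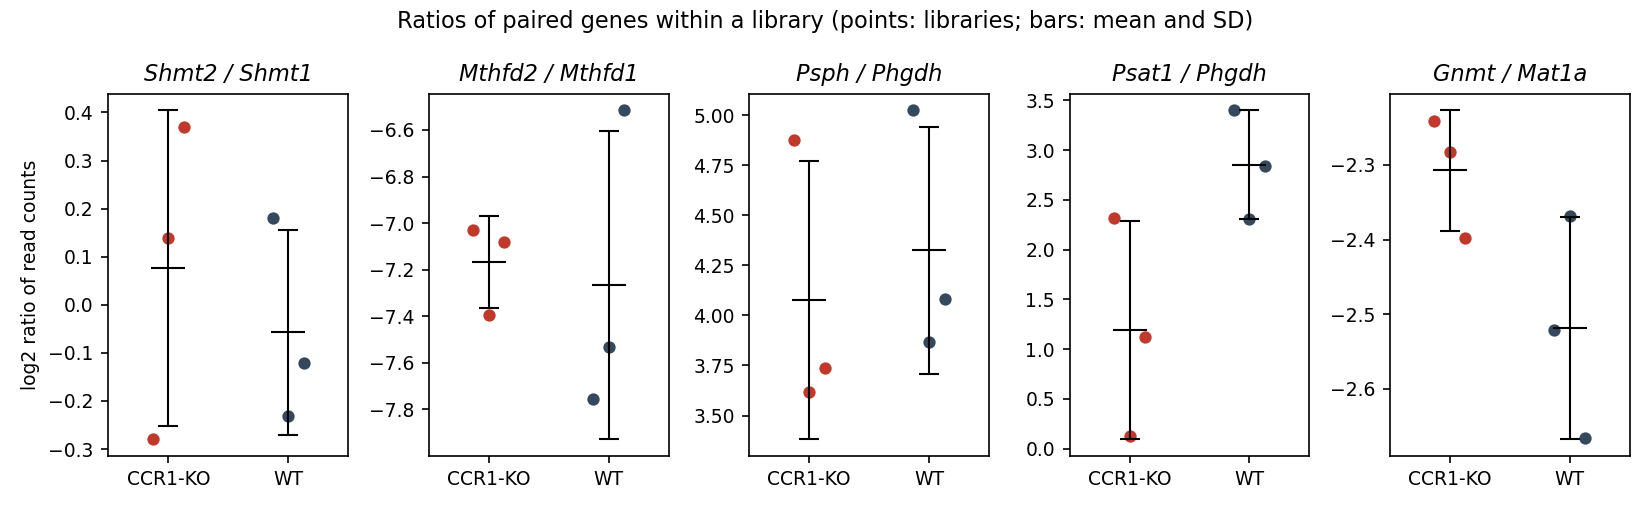
Log2 ratio of read counts of paired genes within each library, CCR1-KO left of WT, with mean and SD (n = 3); each panel has its own axis. The groups overlap in all 5 panels, with Psat1 over Phgdh lowest in CCR1-KO replicate 66.

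For Aldh1l2, Mthfd2 and Mat1a, a counterpart of the same reaction was also examined, chosen after values were seen. Aldh1l1, the cytosolic counterpart of Aldh1l2, stood at 149 ± 3.41 FPKM in CCR1-KO and 152 ± 5.17 FPKM in WT, far above Aldh1l2 in both groups. In CPM it had 826 ± 110 in CCR1-KO and 677 ± 33.3 in WT (fold change 0.29 ± 0.15, adjusted p = 0.27, and -0.031 without scaling factors). Mthfd2l, a paralog of Mthfd2, had 0.130 ± 0.0436 FPKM in CCR1-KO and 0.247 ± 0.0635 FPKM in WT (fold change -0.63 ± 0.32, adjusted p = 0.28). Mthfd2 itself had 0.257 ± 0.0351 FPKM in CCR1-KO and 0.313 ± 0.170 FPKM in WT. In CPM the groups of Aldh1l1 (higher in CCR1-KO) and Mthfd2l (lower) did not overlap, as for 32.6% of all tested genes. Mat2a, the form of methionine adenosyltransferase found in most tissues, had 18.9 ± 5.83 FPKM in CCR1-KO and 23.5 ± 3.69 FPKM in WT, far below Mat1a (fold change -0.031 ± 0.15, adjusted p = 0.93).

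In the surrounding methionine cycle and methyl transfer list, 3 of 15 genes were higher in CCR1-KO, 0 were lower and 12 missed the threshold (median 0.024). Higher calls made up 2.83% of all tested genes and lower calls 3.61%, which is the background for each list that follows. Nnmt, which spends S-adenosylmethionine on nicotinamide, had 108, 171 and 97.3 CPM in CCR1-KO replicates 65, 66 and 67, and 22.5, 28.9 and 44.1 CPM in WT replicates 62, 63 and 64. It rose by 1.98 ± 0.30 (adjusted p = 0.015), and the groups were well apart. Ahcy, which hydrolyses the spent methyl donor, had 2509 ± 519 CPM in CCR1-KO and 1235 ± 169 CPM in WT (fold change 1.02 ± 0.20, adjusted p = 0.029). The gene model Gm4737, which the table gives the same enzyme number as Ahcy, took 572 ± 128 CPM in CCR1-KO and 284 ± 51.0 CPM in WT, and how reads were split between them is not given. Their sum was 2.03 times as high in CCR1-KO as in WT. Mtrr, the reductase that keeps methionine synthase active, had 10.3 ± 1.84 CPM in CCR1-KO and 6.13 ± 0.302 CPM in WT (fold change 0.75 ± 0.18, adjusted p = 0.048). The Mtrr call was lost without scaling factors (0.43, adjusted p = 0.20), in limma on FPKM (0.32, adjusted p = 0.15) and with no filter on low counts (adjusted p = 0.075). Without scaling factors and on FPKM the medians of all genes were shifted to -0.30 and -0.23, here and for the genes below.

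The transsulfuration and cysteine list had 1 of 11 genes higher, 0 lower and 10 not past the threshold (median 0.055). This was Cbs, which commits homocysteine to cysteine, with 306 ± 40.8 CPM in CCR1-KO and 173 ± 29.1 CPM in WT (fold change 0.83 ± 0.17, adjusted p = 0.032). Its call was lost without scaling factors (0.52, adjusted p = 0.18) and in limma on FPKM (0.51, adjusted p = 0.15), beside the same shifted medians. On FPKM the groups of Cbs overlapped. Among other folate enzymes and carriers, 1 of 15 was lower, 0 were higher and 14 missed the threshold (median -0.13). Mthfd1l, the mitochondrial enzyme that releases formate to the cytosol, had 1.31, 1.26 and 0.719 CPM in CCR1-KO, against 3.72, 2.60 and 3.75 CPM in WT. It fell by 1.61 ± 0.32 on the log2 scale (adjusted p = 0.029). Each CCR1-KO library lay below each WT library.

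In the list of serine and glycine uptake and breakdown, 1 of 15 rose, 0 fell and 14 did not pass (median -0.10). Slc38a2, a carrier of small neutral amino acids, had 135, 317 and 320 CPM in CCR1-KO, against 67.6, 51.3 and 56.0 CPM in WT (fold change 2.14 ± 0.32, adjusted p = 0.015). CCR1-KO replicate 65 was the lowest of its group and still above the WT libraries. Of 11 genes of choline oxidation and betaine 0 passed in edgeR with TMM factors (median -0.085). An unadjusted p under 0.05 was reached by 4 of the 11, and by 4331 of all 17729 tested genes. Pcyt1a had the smallest p of this list, although it is the regulated enzyme of phosphatidylcholine synthesis and not one of choline oxidation. It had 65.8 ± 11.2 CPM in CCR1-KO and 97.8 ± 7.48 CPM in WT (fold change -0.57 ± 0.15, adjusted p = 0.064). It passed without scaling factors (-0.88, adjusted p = 0.026), in DESeq2 (0.017) and in limma on log2(FPKM + 0.5) and log2(FPKM + 0.1) (0.021 and 0.032). In purine synthesis, which uses formyl-folate, 1 of 13 rose, 1 fell and 11 did not pass (median -0.026). Paics had 178 ± 13.3 CPM in CCR1-KO and 114 ± 10.6 CPM in WT (fold change 0.64 ± 0.13, adjusted p = 0.029), but 0.33 without scaling factors (adjusted p = 0.27) and 0.33 in limma on FPKM (adjusted p = 0.22). Prps2, which makes the ribose phosphate precursor, had 10.9 ± 1.42 CPM in CCR1-KO and 17.1 ± 0.444 CPM in WT (fold change -0.64 ± 0.14, adjusted p = 0.037, and 0.059 with no filter on low counts).

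Phgdh, Psat1, Psph, Shmt2, Mthfd2 and Aldh1l2 are known targets of the stress factor ATF4 in cultured cells. Of 22 other ATF4 target genes listed, 1 rose, 0 fell and 21 did not pass (median -0.11). Of all tested genes 2.83% were higher and 3.61% lower, so this count is near the background. The gene that rose was Chac1, which degrades glutathione. It had 5.60, 12.0 and 12.4 CPM in CCR1-KO, against 2.14, 2.11 and 4.32 CPM in WT (fold change 1.81 ± 0.40, adjusted p = 0.040). The Chac1 call was lost without scaling factors (adjusted p = 0.058) and with no filter on low counts (0.056). Slc38a2, which rose in the list of serine and glycine uptake above, was not on this ATF4 list. The count therefore does not cover it, and its absence does not mean that it is not a target.

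These calls were sensitive to single libraries. Mthfd1l, Ahcy, Mtrr, Cbs, Paics, Prps2 and Chac1 kept the call without CCR1-KO replicate 65, and lost it without any other single library. Their highest adjusted p in these fits was 0.12 for Mthfd1l, 0.13 for Ahcy, 0.17 for Mtrr, 0.12 for Cbs, 0.12 for Paics, 0.14 for Prps2 and 0.14 for Chac1. Slc38a2 lost it without each of the 3 WT libraries (up to 0.079), and Nnmt without WT replicates 62 and 63 (up to 0.080). In limma on unfiltered FPKM none of these 9 genes passed (adjusted p 0.055 to 0.27). With 1 library left out no fold change of the 9 changed sign. The ranges were -1.76 to -1.39 for Mthfd1l, 0.91 to 1.18 for Ahcy, 0.67 to 0.89 for Mtrr and 0.71 to 0.95 for Cbs. They were 0.57 to 0.70 for Paics, -0.71 to -0.54 for Prps2 and 1.62 to 2.23 for Chac1. Slc38a2 ranged from 1.95 to 2.45 and Nnmt from 1.69 to 2.28.

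**Figure D4:**
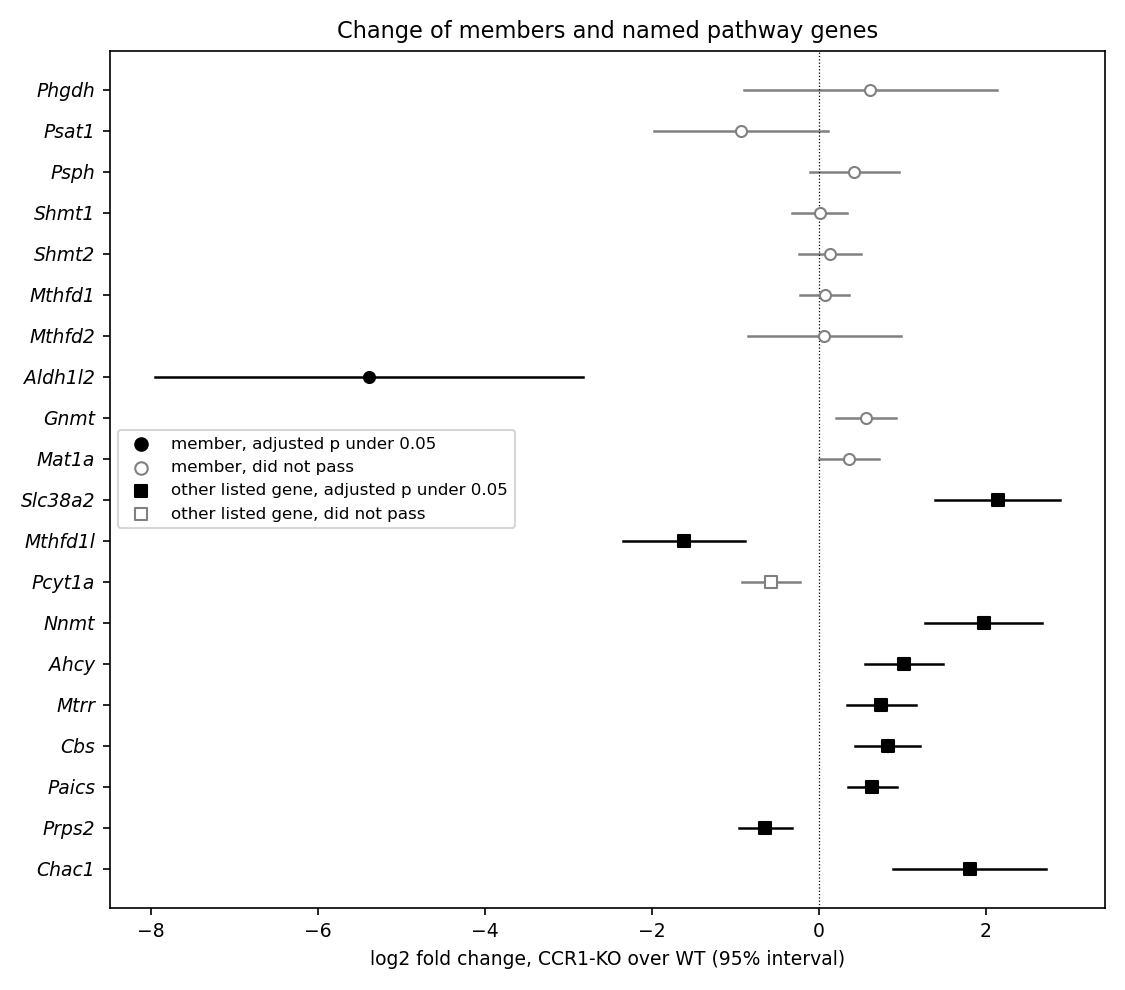
Log2 fold change of CCR1-KO over WT with its 95% interval for the 10 genes (circles) and for genes named from the pathway lists (squares), filled where adjusted p was under 0.05. Aldh1l2, at -5.39, is the one filled circle, while Slc38a2, Nnmt and Chac1 lie at 1.81 to 2.14.

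**Figure D5:**
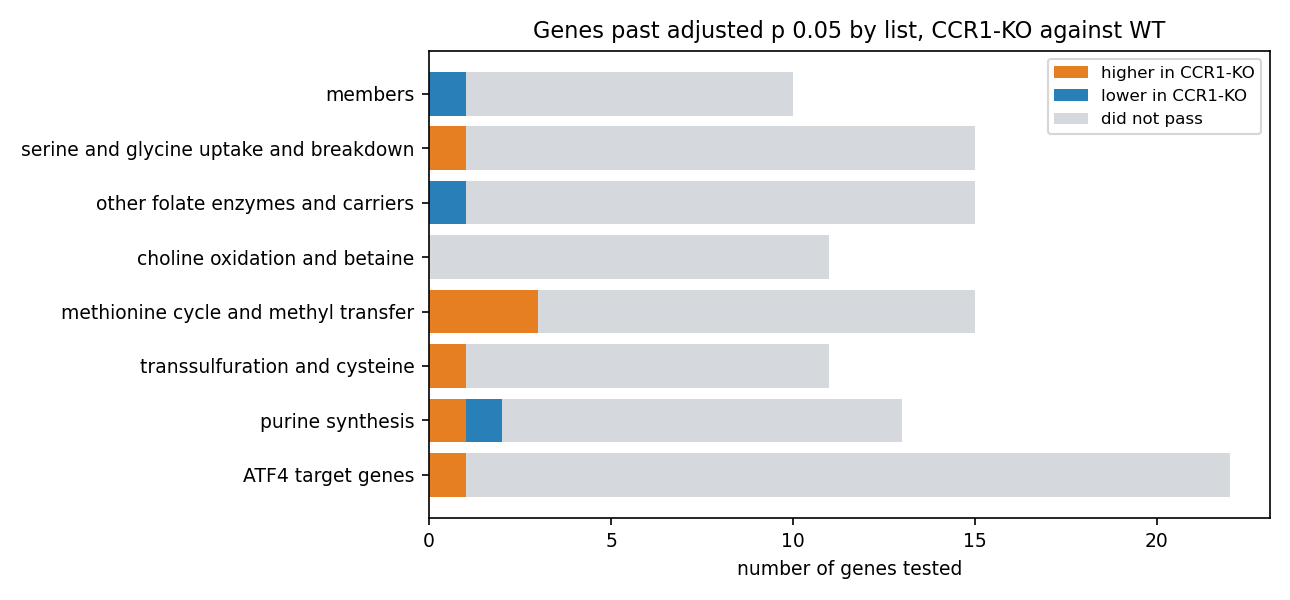
Number of tested genes in each list that were higher, lower or not past the threshold in CCR1-KO against WT. The methionine cycle list has 3 higher of 15 and the choline list has 0 past the threshold of 11.

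The pathway membership that the table itself gives (KEGG) was read as a list not built for this comparison, though it was chosen after values were seen. Of all tested genes 2.83% were higher and 3.61% lower. The folate pathway holds 5 of the 10 genes (Shmt1, Shmt2, Mthfd1, Mthfd2 and Aldh1l2), and of its 19 tested genes 2 fell, Aldh1l2 and Mthfd1l, and 0 rose (median -0.062). The glycine, serine and threonine pathway holds 6 of the 10 (Phgdh, Psat1, Psph, Shmt1, Shmt2 and Gnmt). Of its 38 tested genes 2 rose, Cbs and Alas1, the first enzyme of haem synthesis (fold change 1.22 ± 0.23, adjusted p = 0.027), and 0 fell (median 0.075). The cysteine and methionine pathway, with Mat1a, had 7 higher and 0 lower of 43 tested (median 0.074). Beside Ahcy, Cbs and Gm4737, these were the aminotransferase genes Tat, Kyat1, Kyat3 and Got1, of which Tat had the largest fold change (1.80 ± 0.27, adjusted p = 0.015). How reads were split between Ahcy and Gm4737 is not given, so they may not be 2 separate rises. Without each WT library in turn Tat and Kyat3 lost the call (adjusted p up to 0.078 and 0.091), and Kyat1 lost it without WT replicate 63 (0.0503). Alas1, Gm4737 and Got1 kept it without CCR1-KO replicate 65 and lost it without any other single library (up to 0.12, 0.13 and 0.18). As given above, fewer of all tested genes passed in those fits, so these losses cannot be told apart from that. Got1 also lost the call without scaling factors (0.075), in limma on FPKM (0.067) and with no filter on low counts (0.069). In limma on unfiltered FPKM, Kyat1 alone of Tat, Kyat1, Kyat3, Got1, Gm4737 and Alas1 passed (0.034).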

How the data were processed

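Bulk liver RNA in 6 libraries (3 CCR1-KO, 3 WT) was analysed. Groups and replicate numbers were taken from the sample labels. The labels do not state that each number is a separate animal, so p-values measure the spread between these samples. Per the labels' protocols, polyadenylated RNA was sequenced as pairs with dUTP strand marking. HISAT2 2.2.1 and cutadapt 1.9 are listed, beside StringTie 2.1.6, edgeR and DESeq2, in the submitters' processing notes, which assign no roles. The notes name a human build, whereas the identifiers are of mouse and the coordinates are those of GRCm38. The authors deposited read counts, whole numbers that are not normalized, and FPKM values per gene and library. The deposited FPKM followed the counts by 1 factor per library (SD of the log2 ratio at most 0.00095 over 3308 genes).

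Counts were tested with edgeR 4.0.16 (R 4.3.3) quasi-likelihood, TMM factors, filterByExpr (minimum count 10, total 15) and Benjamini-Hochberg adjustment over 17729 genes. limma 3.58.1 on log2(FPKM + 0.5) and DESeq2 1.42.0 were alternatives. Standard errors were obtained by dividing the size of each log2 fold change by the root of its F statistic. The count test was tested on simulated data. Replicates differed by more than sampling noise (chi-square per degree of freedom at least 68.7). Members and lists were chosen with earlier results of these data known. Named from each list were the genes past the threshold, up to 4, or else the gene of smallest p.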

Additional observations from a re-analysis of the deposited data

How the results depend on the processing

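The number of genes past the threshold was 1141, against 735 with no filter on low counts, 2347 in DESeq2 and 366 in limma on unfiltered FPKM. With 1 library left out it was 2419 without CCR1-KO replicate 65 and 102 to 395 without any other single library. Of the 10 members 1 passed, against 0 with no filter on low counts and 0 in limma on log2(FPKM + 0.5), on log2(FPKM + 0.1) and on unfiltered FPKM. Without CCR1-KO replicate 65, 2 members passed, and without any other single library 0 passed. In DESeq2 the member that passed was Gnmt, and Aldh1l2 and Phgdh got no adjusted p there. Phgdh, Psat1, Mthfd2 and Aldh1l2 lay below the FPKM filter of limma. Of the genes past the threshold 43.9% were higher, but 20.4% with no scaling factors and 17.2% in limma on FPKM.

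Signs turned for Shmt1, Shmt2, Mthfd1, Mthfd2, Mat2a and Aldh1l1, none past the threshold. With no scaling factors the first 4 were -0.26, -0.17, -0.24 and -0.26. In limma Shmt1, Shmt2 and Mthfd1 were -0.30, -0.17 and -0.24 at 0.5 added, -0.31, -0.17 and -0.24 at 0.1 added, and -0.30, -0.17 and -0.24 with no filter, where Mthfd2 was -0.085. With 1 library left out Shmt1 ranged from -0.12 to 0.11 and Mthfd2 from -0.13 to 0.54. Mat2a ranged from -0.15 to 0.075. Aldh1l1 was -0.031 with no scaling factors and, in limma, -0.030 at 0.5 added, -0.031 at 0.1 added and -0.030 with no filter. With 1 library left out the difference in log2 ratio ranged from -0.014 to 0.31 for Shmt2 over Shmt1, from -0.14 to 0.48 for Mthfd2 over Mthfd1 and from -0.65 to 0.10 for Psph over Phgdh. The cause of these changes was not tested. No paired analysis was possible because the groups share no replicate number. Depth limits Phgdh and Aldh1l2 most. The comparison of groups on FPKM was added after seeing the data.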
